A study of Mus musculus with 4 samples.

Results

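The genes described here are 4 connexins of the epidermis, Gja1, Gjb2, Gjb5 and Gjb6, and the pannexins Panx1 and Panx3. They were taken by gene symbol from the platform annotation, as 13 of the 45101 probe sets on the array and 6 of the 18193 genes tested. No filter on low signal was applied, so all 6 entered the test.

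Connexins are membrane proteins whose rings dock between neighbouring cells to form gap junctions, through which ions, inositol phosphates and other small molecules pass. Pannexins form single-membrane channels that release ATP and other metabolites to the outside of the cell, where purinergic receptors sense them. In skin, Cx43 (encoded by Gja1) is the main connexin of basal and spinous keratinocytes, Cx26 (Gjb2) and Cx30 (Gjb6) are low in resting interfollicular epidermis and rise in wounds and hyperproliferative states, and inherited mutations of Gjb2, Gjb6 and Gja1 cause disorders of the skin and its appendages.

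RNA of basal interfollicular cells from mouse tail epidermis was hybridised to Affymetrix 3' arrays. The cells had been sorted for integrin alpha 6 and against CD34, a bulge stem cell marker. The SmoM2 group (2 arrays, genotype K14CreER:SmoM2) expressed SmoM2, an always-active form of the Hedgehog transducer Smoothened, and kept Sox9. The Sox9cKO group (2 arrays, K14CreER:SmoM2:Sox9cKO) expressed SmoM2 and had Sox9 conditionally deleted, and the comparison asks which genes depend on Sox9 in oncogene-expressing cells. Both groups carried K14CreER, a tamoxifen-dependent Cre driven in basal keratinocytes, received 2.5 mg of tamoxifen on 10 consecutive days, and were taken 9 weeks after the first dose, so the design holds no cells without SmoM2. The labels name no number or sex of animals for an array, so p-values cover only the spread among these arrays, for an unknown number of animals.

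Array medians lay between 5.45 and 5.48 on the log2 scale. At its probe set brightest over all 4 arrays, Sox9 read 8.77 and 9.27 in SmoM2 against 8.06 and 8.48 in Sox9cKO. By the rule used for other genes this probe set stands for Sox9. Its log2 change of -0.75 did not pass (limma adjusted p = 0.148 over all probe sets). At the probe set brightest in SmoM2, a choice that favours a fall, Sox9 read 10.21 and 10.02 against 6.75 and 5.70. The log2 change there was -3.89 (SE 0.31, adjusted p = 0.00171). The remaining probe set was at -0.41 and did not pass (adjusted p = 0.309). Among all genes, 484 were called higher and 642 lower at an adjusted p under 0.05 (limma with Benjamini-Hochberg adjustment), 6.19% of those tested, and without SmoM2 replicate 1 or 2 these counts were 222 and 357 or 199 and 335. Y-linked genes (Eif2s3y, Kdm5d, Uty) lay at 6.74 to 9.48 in 1 array of each group, SmoM2 replicate 2 and Sox9cKO replicate 1, and at 3.23 to 3.62 in their group mates. The arrays of a group were therefore not technical repeats of the same RNA.

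None of the 6 connexin and pannexin genes changed past the test between Sox9cKO and SmoM2 cells. Their log2 changes lay between -0.01 and 0.36 with a median of 0.13, against a median of 0.02 over all genes, and 0 had an unadjusted p under 0.05, against 17.8% of all genes. The smallest adjusted p was 0.385, for Gjb5 (limma). For 5 of the 6 genes, at the probe set that stands for each, the 95% interval of the change lay inside a 2-fold difference in either direction, and the exception was Gjb2. Of the 5, Panx3 was dim, so its narrow interval says little about a 2-fold change. For Gja1, the intervals at 2 dimmer probe sets reached past a 2-fold rise, to log2 changes of 1.69 and 1.03. These are bulk samples, in which fewer cells of a type and less RNA per cell cannot be told apart. An exact permutation test of 1 gene could not go below p = 0.333 with 2 arrays against 2, so calls depend on limma's pooling of spread over genes.

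**Figure D1:**
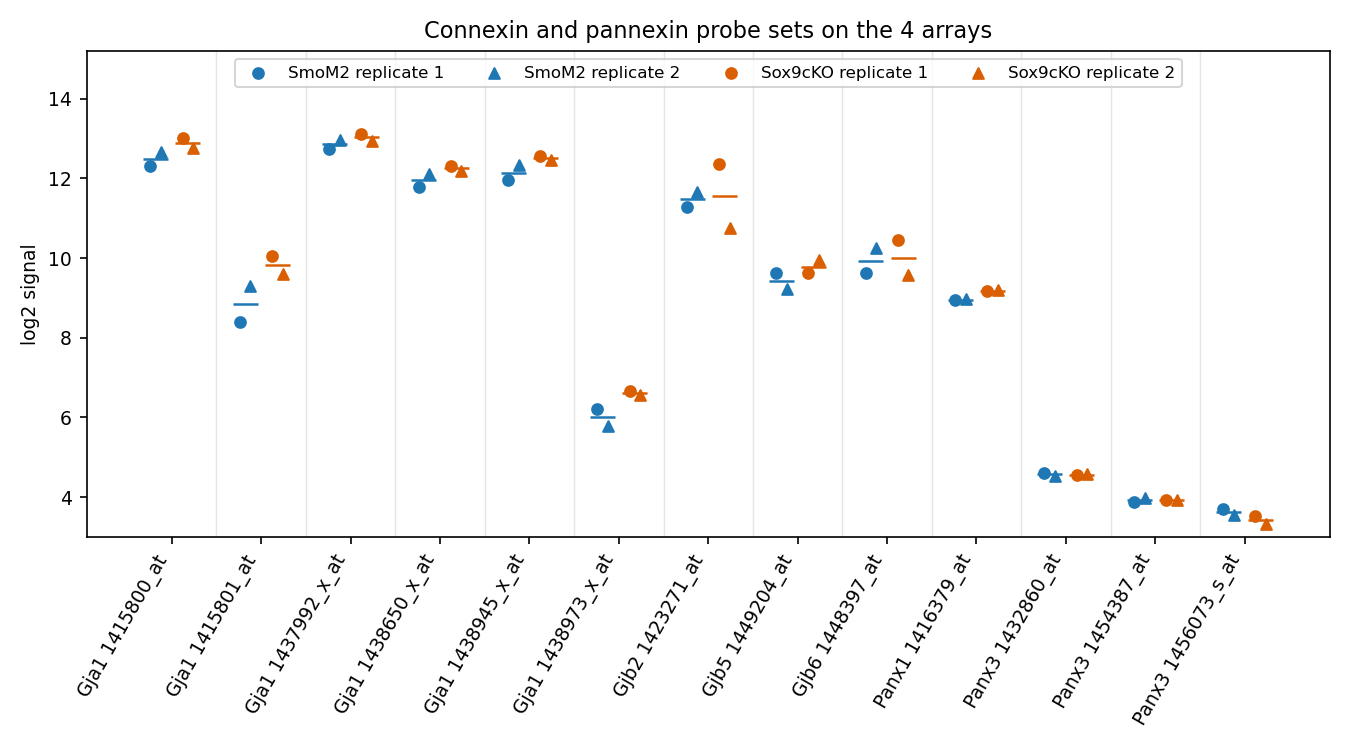
Log2 signal of the 13 connexin and pannexin probe sets (horizontal axis) on each of the 4 arrays, with circles for replicate 1, triangles for replicate 2 and a short line at each group mean. Gja1 sits slightly higher in Sox9cKO at each of its 6 probe sets, the Sox9cKO replicates of Gjb2 are far apart at 12.35 and 10.76, and Panx3 stays between 3.34 and 4.62; signals of different probe sets are not comparable as amounts.

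To give the 3 members whose values the account turns on their sequence context, the 250 bases upstream of the annotated start are shown for Gja1 (chr10:56377050-56377299, plus strand), Gjb2 (chr14:57104703-57104952, minus strand) and Gjb6 (chr14:57133612-57133861, minus strand), from RefSeq on GRCm38.p6, 5′ to 3′ in the direction of the gene. Capitals mark matches on either strand to the AP-1 motif TGANTCA, the SOX cores ACAAAG and ACAATG, the GLI motif GACCACCCA, the TATA box TATAAA or the GC box GGGCGG.
Gja1: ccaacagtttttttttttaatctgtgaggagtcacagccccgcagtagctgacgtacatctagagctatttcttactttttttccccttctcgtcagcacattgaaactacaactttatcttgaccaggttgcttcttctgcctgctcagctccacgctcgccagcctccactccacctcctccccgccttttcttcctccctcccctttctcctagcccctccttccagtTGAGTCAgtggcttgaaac
Gjb2: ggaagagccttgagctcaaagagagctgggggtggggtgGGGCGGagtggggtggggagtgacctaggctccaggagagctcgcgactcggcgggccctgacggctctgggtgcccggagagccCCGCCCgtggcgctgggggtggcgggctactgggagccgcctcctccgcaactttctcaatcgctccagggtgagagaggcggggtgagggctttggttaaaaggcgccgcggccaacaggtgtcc
Gjb6: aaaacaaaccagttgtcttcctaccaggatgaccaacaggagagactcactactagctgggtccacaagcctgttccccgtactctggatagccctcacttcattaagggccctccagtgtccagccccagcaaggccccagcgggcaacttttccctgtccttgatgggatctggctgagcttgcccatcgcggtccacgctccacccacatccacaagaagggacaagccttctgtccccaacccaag
The Gja1 window held 1 AP-1 motif, starting 19 bases before the annotated start, a match that 6.75% of all 32851 RefSeq promoter windows of this length share. Gjb2 had 2 GC boxes, starting 211 and 126 bases before the start (32.7% of windows hold one), with a GC content of 69.2% and 18 CpG dinucleotides, against medians of 52.4% and 6 over all windows. Gjb6 had no match to the 6 motifs, a GC content of 56.8% and 5 CpGs. Neither SOX core (16.5% and 10.7% of windows) nor the GLI motif (0.225%) occurred in the windows of Gja1, Gjb2, Gjb5, Gjb6 and Panx1, the 5 of 6 members found in the RefSeq table. A match describes letters in the window and is not a mapped site.

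Gja1, the Cx43 gene, was read by 6 probe sets. On average each was higher in Sox9cKO, and at 5 of them the arrays of the groups did not overlap, which 22.6% of all probe sets showed in that direction. The 6 probe sets read the same gene from the same 4 RNA samples and are not independent. The brightest, 1437992_x_at, which stands for the gene, read 12.75 in SmoM2 replicate 1 and 12.95 in replicate 2, against 13.11 in Sox9cKO replicate 1 and 12.94 in replicate 2. Its groups overlapped by a small margin, and the log2 change was 0.18 (SE 0.15, 95% interval -0.17 to 0.52, adjusted p = 0.635 over genes). The suffix _x_at marks probe sets of which some probes may also match other transcripts.

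The larger Gja1 differences came from 2 dimmer probe sets. At 1415801_at the signal was 8.40 and 9.31 in SmoM2 (replicates 1 and 2, the order used from here on) against 10.05 and 9.61 in Sox9cKO. SmoM2 replicate 1 was the lowest array, and the change of 0.97 (SE 0.30, 95% interval 0.26 to 1.69) had an adjusted p of 0.170 over all probe sets (limma). At 1438973_x_at the values were 6.22 and 5.80 against 6.67 and 6.56, a change of 0.61 (SE 0.18, 95% interval 0.18 to 1.03, adjusted p = 0.148). Of the 13 member probe sets 0 were called, against 3.82% of all probe sets, and these were the 2 with an unadjusted p under 0.05, which 14.9% of all probe sets had.

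The remaining Gja1 probe sets were bright and moved less. Those were 1415800_at, with 12.30 and 12.67 in SmoM2 and 13.01 and 12.77 in Sox9cKO (log2 change 0.41, adjusted p = 0.356), 1438945_x_at with a change of 0.37 (adjusted p = 0.387) and 1438650_x_at with 0.31 (adjusted p = 0.479). In all 3 the lowest array was SmoM2 replicate 1. The value for the gene therefore depended on the probe sets used, at 0.18 for the brightest, 0.41 without the _x_at and _s_at probe sets (adjusted p = 0.286) and 0.47 for the mean of all 6 (adjusted p = 0.151). With SmoM2 replicate 1 left out the brightest probe set was at 0.07, and without Sox9cKO replicate 1 it was at 0.10.

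Gjb2 and Gjb6 encode Cx26 and Cx30, which can join in mixed channels, and lie close together on chromosome 14 with 1 other annotated gene between them. Gjb2 read 11.29 and 11.66 in SmoM2 against 12.35 and 10.76 in Sox9cKO. The highest and the lowest array were both Sox9cKO, and the group means of 11.47 ± 0.26 and 11.56 ± 1.13 (SD, n = 2) differed by 0.08 (SE 0.45, 95% interval -0.98 to 1.14, adjusted p = 0.955). That interval reaches past a 2-fold rise. The Sox9cKO replicates were 1.59 apart, a wider gap than in 99.8% of genes in that group, whose median gap was 0.15. Without Sox9cKO replicate 1 the change was -0.71 (adjusted p = 0.138), without Sox9cKO replicate 2 it was 0.88 (adjusted p = 0.0712), and without SmoM2 replicate 1 it was -0.10.

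Gjb6 followed the same order of arrays within each group. It read 9.61 and 10.25 in SmoM2 against 10.45 and 9.58 in Sox9cKO. The groups overlapped, with means of 9.93 ± 0.45 and 10.01 ± 0.62 (SD, n = 2) and a change of 0.08 (SE 0.31, 95% interval -0.65 to 0.82, adjusted p = 0.936). The gap between replicates was 0.63 in SmoM2 and 0.87 in Sox9cKO, wider than for 97.2% and 98.4% of genes, with medians of 0.16 and 0.15. Without SmoM2 replicate 1 the change was -0.23 and without Sox9cKO replicate 1 it was -0.35.

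The arrays with Y-linked signal, SmoM2 replicate 2 and Sox9cKO replicate 1, were the higher of their group for both genes. For Gjb2 the difference between the array with and the array without Y-linked signal was 0.36 in SmoM2 and 1.59 in Sox9cKO, and for Gjb6 it was 0.63 and 0.87. Gja1 was higher in the same arrays at its brightest probe set, by 0.20 and 0.16, whereas Gjb5 was lower in them, by 0.38 and 0.31. Of all genes, 20.2% were higher in the array with Y-linked signal in both groups. The part of Y-linked signal in these differences was not tested.

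Gjb5, which encodes a beta connexin of stratified epithelia, read 9.62 and 9.23 in SmoM2 and 9.63 and 9.94 in Sox9cKO. The groups were apart by a thin margin only, between SmoM2 replicate 1 and Sox9cKO replicate 1. The change of 0.36 was the largest of the 6 genes (SE 0.18, 95% interval -0.08 to 0.79, adjusted p = 0.385), and leaving out SmoM2 replicate 1 gave 0.55, leaving out SmoM2 replicate 2 0.17. Arrays of the groups did not overlap for 2 of the 6 genes, Gjb5 and Panx1, against 47.9% of all genes.

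Panx1 encodes the widely expressed ATP-release channel and had the tightest replicates. It read 8.94 and 8.97 in SmoM2 and 9.16 and 9.19 in Sox9cKO. All 4 values were ordered by group, with SDs of 0.02 in each, and the 1.17-fold difference (log2 change 0.22, 95% interval -0.08 to 0.53) had an adjusted p of 0.455. The SE of 0.13 used by limma draws on the spread of all genes and is larger than the spread of these arrays alone would give. Leaving out any 1 array gave changes of 0.21 to 0.24.

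Panx3, a pannexin known from cartilage, bone and skin, was dim at its 3 probe sets. At 1432860_at the values were 4.62 and 4.53 in SmoM2 and 4.55 and 4.57 in Sox9cKO (log2 change -0.01, 95% interval -0.33 to 0.30, adjusted p = 0.973). The groups overlapped there, and also at 1454387_at, with group means of 3.94 in both. At 1456073_s_at the signal was 3.70 and 3.55 against 3.54 and 3.34, a change of -0.18 (adjusted p = 0.685). The latter 2 probe sets lay near the 3.23 to 3.62 of Y-linked genes in arrays without Y-linked signal, so these arrays give little hold on Panx3.

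**Figure D2:**
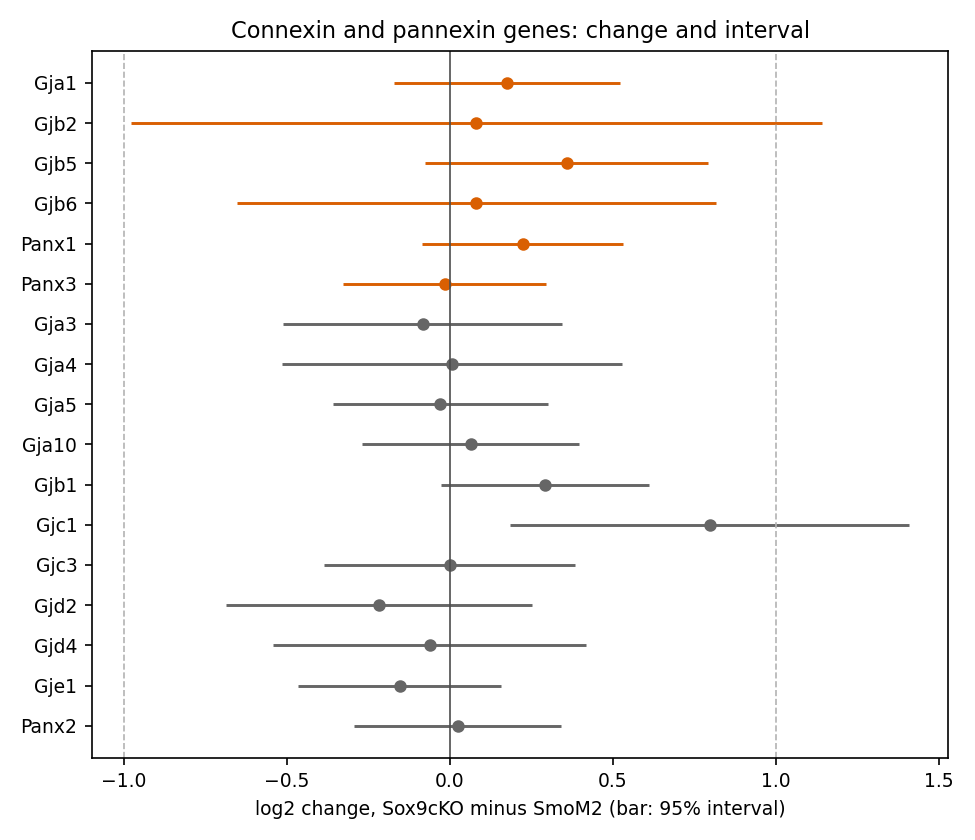
Log2 change, Sox9cKO minus SmoM2, of 17 connexin and pannexin genes (points) with 95% intervals (bars) from limma, with the 6 members in orange, the others in grey and dashed lines at a 2-fold difference. The members' points lie between -0.01 and 0.36, the Gjb2 interval is the widest of them, and Gjc1 is the only gene whose interval leaves out 0.

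Of 11 other connexin and pannexin genes measured, 0 were called, against 6.19% of all genes, and the median change was 0.00. An unadjusted p under 0.05 (limma) was found for 1 of the 11, against 17.8% of all genes. That gene was Gjc1, the Cx45 gene known from vessels, heart and neurons. Its brighter probe set, 1447787_x_at, read 5.09 and 4.24 in SmoM2 and 5.46 in each Sox9cKO array (log2 change 0.80, SE 0.26, adjusted p = 0.154). Its dimmer one, 1449094_at, read 4.57 and 3.93 against 5.64 and 5.46. The log2 change of 1.30 (SE 0.22) there passed with adjusted p = 0.0255 over all probe sets (limma). This was the only 1 of 29 connexin and pannexin probe sets called, against 3.82% of all probe sets. Its SmoM2 signals lay at the level of the dim Panx3 probe sets, so the size of the rise is uncertain, and Gjc1 was not tested with dim genes left out. SmoM2 replicate 2 was the lowest array at both. Without _x_at and _s_at probe sets the gene was called (log2 change 1.30, adjusted p = 0.0152). The brighter probe set was at 1.22 without SmoM2 replicate 1 and at 0.37 without SmoM2 replicate 2, each of which left 1 SmoM2 array.

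The other 10, dim like Gjc1, did not pass. Gjb1, a connexin gene of liver and nerve sheath, changed by 0.29 (adjusted p = 0.330), the neuronal connexin gene Gjd2 by -0.22 (adjusted p = 0.676) and Gje1 by -0.15 (adjusted p = 0.648). Gja4 and Gja5, connexins of endothelium, were at 0.01 and -0.03. The lens connexin gene Gja3, adjacent to Gjb2 in the annotation, was at -0.08 for its brighter probe set and 0.26 for the mean of both. Gja10 (0.06), Gjd4 (-0.06), Gjc3 (0.00) and Panx2 (0.02) had adjusted p values of 0.881 to 1.00.

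**Figure D3:**
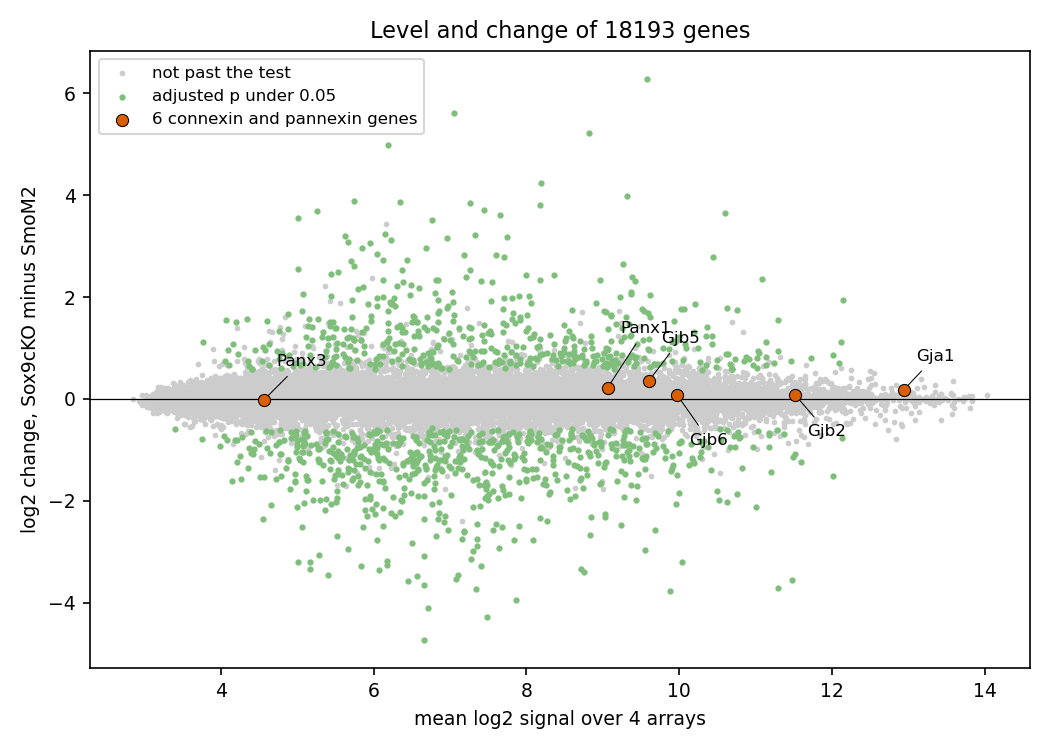
Mean log2 signal over the 4 arrays (horizontal axis) against log2 change, Sox9cKO minus SmoM2 (vertical axis), for each of 18193 genes, in green where the adjusted p was under 0.05 and grey elsewhere. The 6 members, in orange, lie inside the grey band, from Panx3 at the dim end to Gja1 at the bright end.

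Among genes that anchor, move or break down connexins, those called encode scaffolds and were lower, and no gene of transport or breakdown was called. Of 19 measured, 3 were called lower and 0 higher, against 3.53% and 2.66% of all genes, with a median change of -0.13. Cav1 and Cav2 encode caveolins, membrane scaffolds with which connexins associate. Cav1 read 11.48 and 11.80 in SmoM2 and 10.51 and 10.89 in Sox9cKO, a 1.92-fold fall (log2 change -0.94, SE 0.19, adjusted p = 0.0297). Cav2 read 11.57 and 11.48 against 10.81 and 10.83, a 1.63-fold fall (log2 change -0.71, SE 0.13, adjusted p = 0.0237). Amotl2, a junction scaffold, fell 1.61-fold, from 8.37 and 8.12 to 7.61 and 7.51 (log2 change -0.68, adjusted p = 0.0430).

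These calls were not kept in every run. With 1 array left out fewer of all genes pass. A missed threshold in such a run, here and below, therefore cannot by itself show that a call rested on that array. Cav1 missed the threshold without SmoM2 replicate 1 or 2 (adjusted p = 0.0693 and 0.172) and without Sox9cKO replicate 1 (adjusted p = 0.109). With Y-linked signal as a block, chosen after seeing the data, Cav1 and Amotl2 also missed it (adjusted p = 0.0511 and 0.0744). Cav2 and Amotl2 missed it with any array left out (adjusted p = 0.0800 to 0.128 and 0.0863 to 0.206). Averaged over both probe sets, Cav2 was at -0.49 (adjusted p = 0.0747). Src, a kinase that phosphorylates Cx43, was at -0.52 (adjusted p = 0.0716), or -0.10 without _x_at and _s_at probe sets. Tjp1, the ZO-1 scaffold that binds the tail of Cx43, was at 0.32 (adjusted p = 0.373), and the adherens junction genes Cdh1 and Ctnnb1 at -0.19 and -0.13 (adjusted p = 0.740 and 0.718).

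Receptors and enzymes of extracellular ATP moved both ways, with 1 of 24 measured genes called higher and 2 lower, against 2.66% and 3.53% of all genes, and a median of 0.09. P2rx4, an ATP-gated cation channel, read 8.03 and 8.18 in SmoM2 and 7.28 in each Sox9cKO array, a 1.77-fold fall (log2 change -0.83, SE 0.14, adjusted p = 0.0146). Enpp3, an ectoenzyme that cleaves nucleotides, read 5.64 and 5.31 against 4.45 and 4.10, a 2.30-fold fall (log2 change -1.20, SE 0.18, adjusted p = 0.0104). P2rx5, another ATP-gated channel, rose 1.54-fold, from 5.04 and 5.17 to 5.82 and 5.65 (log2 change 0.63, SE 0.14, adjusted p = 0.0488). In all 3 genes the arrays of the groups were apart, as in 14 of the 24 genes of the list and 47.9% of all genes. The 3 were named because they passed the test, so this adds no support. The Sox9cKO signals of Enpp3 lay near those of the dim Panx3 probe sets, so the size of its fall is uncertain, and neither Enpp3 nor P2rx5 was tested with dim genes left out.

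Of these, P2rx5 missed the threshold without any 1 array (adjusted p = 0.0874 to 0.223), with a trend and robust prior (adjusted p = 0.0603), after a further quantile normalization (adjusted p = 0.0532) and with Y-linked signal as a block (adjusted p = 0.0738). P2rx4 missed it without any 1 array too, with adjusted p = 0.0535 to 0.0984, and averaged over its 4 probe sets it was at -0.41 (adjusted p = 0.204). Enpp3 missed it without SmoM2 replicate 1 (adjusted p = 0.0752) and with the mean of its 5 probe sets (log2 change -0.52, adjusted p = 0.0661). P2rx7, an ATP receptor linked to Panx1 channels, was at 0.46 (adjusted p = 0.141). Nt5e, the enzyme that makes adenosine from AMP, read 9.25 and 9.92 in SmoM2 and 10.13 and 7.31 in Sox9cKO, the same order of arrays as Gjb2 and Gjb6. Its change of -0.86 did not pass (adjusted p = 0.664). The Sox9cKO replicates of Nt5e were 2.82 apart. Without Sox9cKO replicate 1, which left 1 array in that group, the change was -2.27, and over the arrays left out its sign was not settled.

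**Figure D4:**
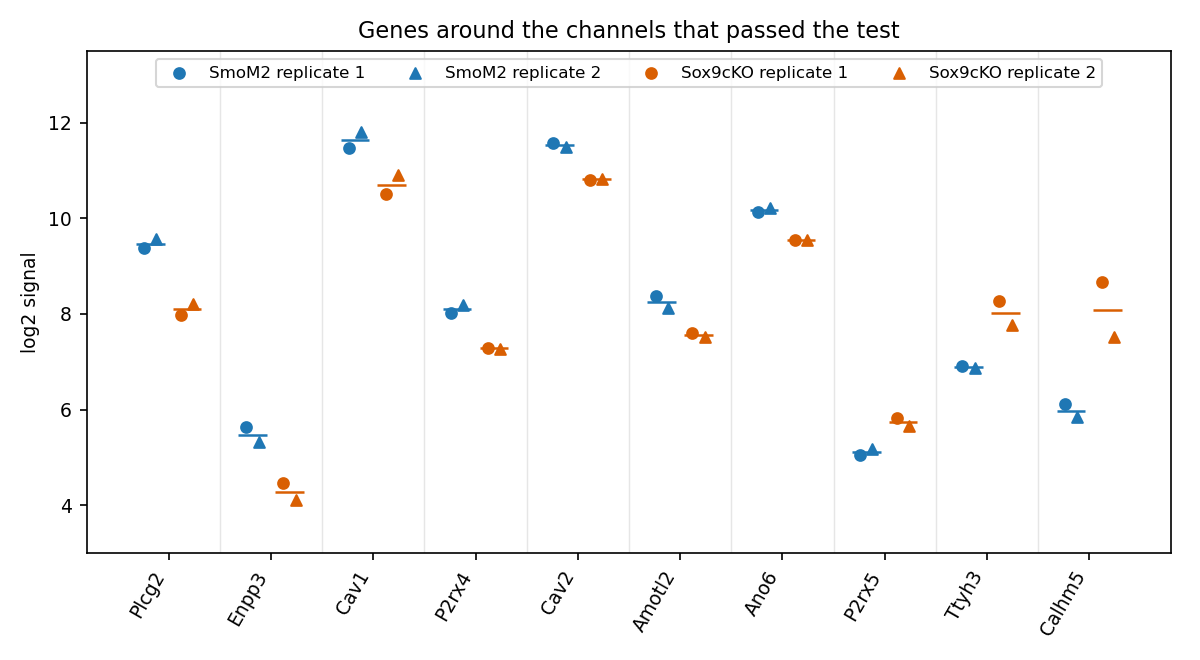
Log2 signal on each array of the 10 genes called in the lists of connexin scaffolds, ATP receptors and enzymes, other large-pore channels and calcium signalling, ordered from the largest fall (Plcg2) to the largest rise (Calhm5), with circles for replicate 1, triangles for replicate 2 and short lines at group means. The arrays of the groups are apart for each of these genes, which were chosen by the test, as they are for 47.9% of all genes. The Sox9cKO replicates of Calhm5 are 8.66 and 7.51.

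Among other large-pore channels, 2 of 13 measured genes were called higher and 1 lower, together 23.1% against 6.19% of all genes, with a median of 0.02. Calhm5, of the calcium homeostasis modulator family of large-pore channels, read 6.12 and 5.84 in SmoM2 and 8.66 and 7.51 in Sox9cKO, a 4.30-fold rise (log2 change 2.11, SE 0.34, adjusted p = 0.0131). Ttyh3, of the tweety family, rose 2.20-fold, from 6.90 and 6.86 to 8.26 and 7.77 (log2 change 1.14, SE 0.18, adjusted p = 0.0135). Ano6, a calcium-activated lipid scramblase and channel, fell 1.55-fold, from 10.13 and 10.21 to 9.53 and 9.55 (log2 change -0.63, SE 0.13, adjusted p = 0.0366). Calhm5 and Ttyh3 missed the threshold without SmoM2 replicate 1 (adjusted p = 0.0740 and 0.0834) or SmoM2 replicate 2 (adjusted p = 0.107 and 0.0962). Ano6 missed it without any 1 array (adjusted p = 0.119 to 0.171), with the mean of its 2 probe sets (adjusted p = 0.0527) and with Y-linked signal as a block (adjusted p = 0.0730).

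Of 18 measured genes of inositol phosphate and calcium signalling, the messengers that pass through gap junctions, 1 was called lower and 0 higher, a share of 5.56% that is near the 6.19% of all genes, and the median was -0.01. Plcg2, a phospholipase that makes inositol trisphosphate, read 9.38 and 9.56 in SmoM2 and 7.97 and 8.21 in Sox9cKO. It fell 2.60-fold (log2 change -1.38, SE 0.15, adjusted p = 0.00280) and passed without any 1 array, with adjusted p = 0.00498 to 0.0307.

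The sorted cells carried keratinocyte markers in both groups. Counts called in the lists below stand against 2.66% of all genes called higher and 3.53% called lower. The mean log2 signal of 8 basal markers was 11.54 and 11.91 in SmoM2 and 11.34 and 11.39 in Sox9cKO, with 0 called. Their median log2 change was -0.43, with 6 lower and 2 higher on average, and the smallest adjusted p was 0.0506 (limma). Of the 8, 4 had an unadjusted p under 0.05, against 17.8% of all genes. Krt5, at 13.20 to 13.41 in the 4 arrays, hardly moved (log2 change -0.005). Of 11 suprabasal markers 3 were called higher and 0 lower, and their mean signal was 10.65 and 10.47 in SmoM2 and 11.00 and 11.36 in Sox9cKO. Of 7 measured hyperproliferative markers 2 were called lower, S100a8 and S100a9, while the stress keratins Krt6a and Krt16 were at -0.30 and -0.61 (adjusted p = 0.361 and 0.111). S100a8 and S100a9 fell by 3.56 and 3.71 on the log2 scale, against a list median of -0.78, and the list averaged 12.87 and 13.22 in SmoM2 and 11.64 and 11.59 in Sox9cKO. Markers of the companion layer, inner root sheath and hair cortex had 8 of 12 called higher, and averaged 5.79 and 5.53 against 7.61 and 7.21. The part of these keratinocyte states in the Gja1, Gjc1 and caveolin values was not tested.

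Markers of other cell types differed in level from list to list. Over all genes 2.66% were called higher and 3.53% lower. Where 1 gene of a list below was called, it made 11.1% to 16.7% of that list, so in lists this short the share says little. The 8 endothelial markers averaged 4.74 and 4.80 in SmoM2 and 4.85 and 4.89 in Sox9cKO with 0 called, and Pecam1 read 4.58 to 4.72. The 7 measured osteoblast and chondrocyte markers averaged 4.81 to 4.97 with 0 called. Of 9 measured fibroblast markers Dcn alone was called. Dcn read 8.85 and 8.70 in SmoM2 and 12.09 and 12.78 in Sox9cKO, a 12.6-fold rise (log2 change 3.66, adjusted p = 0.000446). Among the others, Col1a2 read 5.16 to 6.59 (log2 change 0.72), Col1a1 4.08 to 4.51 and Col3a1 3.71 to 4.21. Of 8 Langerhans and myeloid markers H2-Aa alone was called, higher, from 5.47 and 5.13 to 7.22 and 7.11, with Ptprc at 3.57 to 4.07. Bulge markers had 1 of 8 called higher and 4 lower, and averaged 8.92 and 9.01 in SmoM2 and 8.31 and 8.04 in Sox9cKO. Of 9 measured sebocyte markers 2 were called lower, and their list averaged 8.08 and 7.16 in SmoM2 and 6.72 and 6.48 in Sox9cKO. Of the 7 markers each of melanocytes, Merkel cells and smooth muscle and the 6 measured T cell markers, 0, 1 (Sox2, lower), 1 (Cspg4, lower) and 1 (Thy1, higher) were called. Of the smooth muscle list, Cspg4 read 9.12 and 9.54 in SmoM2, with a log2 change of -1.32 in Sox9cKO, and Acta2 read 7.44 to 8.32 over all arrays. The part of these markers in the connexin and pathway values was not tested.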

How the data were processed

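The labels' protocols describe RNA (100 ng per sample) amplified with a 3' kit and hybridised to Affymetrix arrays. The deposited values are log2 signals per probe set, with a normalization and summary not given in the sources used here. The scale was read from the values, and the submitters' processing notes list R 2.14.0 with no role. Near-equal array medians mean that a change shared by most genes would not be seen. Of 45101 probe sets, 64 were controls, 34945 had 1 gene symbol, 932 several and 9160 were not listed, and symbols were updated by entrez ID through the RefSeq table of GRCm38.p6 for 34741. The brightest probe set by mean over all arrays stood for a gene. Groups came from the sample titles.

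limma 3.58.1 in R 4.3.3 (lmFit, eBayes, two-sided, no covariate, 7.17 degrees of freedom) was fitted over all 18193 genes, and over all probe sets where a value is given for a probe set that does not stand for its gene, with Benjamini-Hochberg adjustment and a threshold of 0.05. The 95% intervals come from the same fits. Members and gene lists were chosen with earlier results of these data known, and lists are described by counts and medians only. Named are every connexin and pannexin, called genes of the other lists, up to 6 each, and, as further members chosen after their values were seen, Src, Tjp1, Cdh1, Ctnnb1, P2rx7 and Nt5e. The rule also asked for the genes most like each called member, and there was no called member. The procedure was tested on simulated data. Replicate numbers were checked for pairing: deviations of same-numbered arrays from their group means correlated at 0.092, and the labels give the numbers no shared source, so they were not treated as pairs. Arrays limit precision by their number, with no read depth.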

Additional observations from a re-analysis of the deposited data

How the results depend on the processing

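None of the 6 members was called under any alternative run, which were an average over a gene's probe sets, no _x_at or _s_at probe sets, every probe set, a trend and robust prior, dim genes left out (Panx3 was then not tested), a further quantile normalization, each array left out, the replicate block and, chosen after seeing the data, Y-linked signal as a block. Leaving out 1 array gave log2 changes of -0.71 to 0.88 for Gjb2, -0.35 to 0.52 for Gjb6, -0.058 to 0.029 for Panx3, 0.07 to 0.28 for Gja1, 0.17 to 0.55 for Gjb5 and 0.21 to 0.24 for Panx1, so the sign of the first 3 is not settled. The count of genes called higher was 199 to 404 and lower 335 to 502 with 1 array left out, where the lone array is assumed to vary like the other group. With every probe set tested, 665 probe sets were higher and 1055 lower, together 3.82% of 45037, against 6.19% of genes in the main run. With the replicate block 879 genes were higher and 1040 lower, and with this block, whose numbers share no known source, Gjc1 (adjusted p = 0.0225), Src (0.0478) and Krt16 (0.0420) were called. With Y-linked signal as a block 422 were higher and 577 lower. The median of the ATP list was -0.18 with dim genes left out, and 0.03 to 0.22 without 1 array. Over the arrays left out, the medians were -0.12 to -0.049 for connexin scaffolds, -0.040 to 0.082 for the other connexins, 0.01 to 0.05 for other large-pore channels and -0.06 to 0.01 for calcium signalling. Signs also turned for Gja3 with the mean of its probe sets (0.26) and for Gja4 after quantile normalization (-0.0003). With 1 array left out the sign was not settled either for Gja3 (-0.32 to 0.15), Gja4 (-0.30 to 0.32), Gja5 (-0.13 to 0.070), Gja10 (-0.040 to 0.17), Gjc3 (-0.17 to 0.17), Gjd2 (-0.50 to 0.068), Gjd4 (-0.32 to 0.19), Panx2 (-0.037 to 0.085), Cdh1 (-0.49 to 0.11), Krt5 (-0.11 to 0.100) and Nt5e (-2.27 to 0.54).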
